A study of Arabidopsis thaliana with 4 samples.

Results

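The transcripts described here are those whose array signal was more than 2-fold lower in gl3 egl3 plants than in wild type plants of Arabidopsis thaliana. The members were chosen by these values themselves. A probe set, the group of short probes that reads 1 transcript or a few related ones, was taken where the lower of the 2 wild type values exceeded the higher of the 2 gl3 egl3 values by 1 or more on the log2 scale, and where the lower wild type value was 5 or more. Of 22746 probe sets, 91 met this rule, which is 0.400% of all probe sets and 0.829% of the 10978 whose wild type values were both 5 or more. The distance between the nearest arrays of the groups is called the gap. Because the rule uses the comparison itself, the levels and differences of these transcripts are a description and carry no test.

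By the labels, RNA of all 4 samples came from green tissue of plants 20 days old. The results text of the study gives another age for such seedlings and names green tissue for both genotypes. Its methods name green tissue for gl3 egl3 but whole tissue for wild type. If the methods hold for these samples, tissue and genotype cannot be told apart. There were 2 groups with 2 arrays each: wild type, whose titles name the accession Ler, and the gl3 egl3 double mutant, whose titles name neither an accession nor the alleles. Amplified RNA of each sample went onto its own Affymetrix ATH1 array, and the values are log2 expression values made with GCRMA. The labels do not say how many plants went into a sample, although the methods of the study describe biologically independent material.

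GL3 and EGL3 are related basic helix-loop-helix transcription factors. Together with the MYB factor GL1 they form the complex that commits epidermal cells of the leaf to become trichomes, the single-celled leaf hairs, and plants without both of them have glabrous leaves. The same family of complexes also controls anthocyanin pigments. Small MYB proteins with a single repeat, such as CPC and MYBL2, act as inhibitors of the complex. Trichomes make up a small part of a leaf, so that whole green tissue mostly reports on other cells.

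The arrays were alike in overall signal, with medians of 4.92 to 4.99, and correlated at 0.992 within each group and at 0.985 to 0.989 between groups, across probe sets, which are not independent replicates. limma called 0 of the 22746 probe sets at an adjusted p under 0.05, or 0%, while 2117 had an unadjusted p under 0.05. The methods' t-test gave 0 after adjustment. Before it, this test gave 1403 at p under 0.05 and 323 at p under 0.01, the threshold that the methods state. limma gave 740 at an unadjusted p under 0.01. The results text of the study describes more replicates for this comparison than the 2 arrays per group here. Its count of genes is therefore not set beside these. The same rule with the groups exchanged found 93 probe sets higher in gl3 egl3, or 0.409% of all and 0.843% of the 11036 whose mutant values were both 5 or more, so that the lower set was no larger than its mirror. The signal of EGL3 itself was at the low end of the scale, 2.31 and 2.31 in gl3 egl3 against 2.30 and 2.30 in wild type. A gene at that level says nothing about the labels either way. GL3 was not analysed here.

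The tissue was checked with marker genes. The photosynthesis genes RCA and LHCB4.1 lay between 12.48 and 13.39 on every array. Of the 6 trichome markers, GL2, TTG2, TRY, MYB23 and ETC1 had means under 3, and SIM, an inhibitor of cell division, lay between 6.35 and 6.63. Defining trichome markers were thus near the floor of the scale in wild type as well as in the mutant. The root gene PYK10 lay at 10.04 and 11.04 in gl3 egl3 against 10.75 and 10.64 in wild type, and the root hair gene EXPA7 at 2.15 to 2.16 on all 4 arrays. The groups overlapped for PYK10, and EXPA7 was at the low end throughout. A listed gene is called measured, here and below, where the annotation names a probe set for it. Measured were 2 of 4 listed root markers, 2 of 6 epidermis markers, 3 of 6 guard cell markers and 2 of 4 mesophyll markers. None of these belonged to the lower set, which held 0.400% of all probe sets. So few genes cannot be read against that share, and the count says nothing about the tissue. EXPA7 and the guard cell genes MUTE and SPCH had wild type values under the floor of the rule and could not enter. The 2 epidermis markers were higher on both mutant arrays. Of the mesophyll markers 1, RCA, was lower on both, and no root or guard cell marker separated the groups. Of the 4 vascular and 4 flower markers 0 were measured, so these tissues were not checked. In bulk tissue, fewer cells of a type and less RNA per cell cannot be told apart.

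The platform annotation assigned 1 gene to 44 of the 91 probe sets. The list of trichome genes in the study named 1 more, MYBL2, so that 45 carried a gene name and stood for 45 different genes. Another 2 probe sets are assigned to several genes and are given no name. A further 44 have no name in the annotation used, which does not mean that they lack a gene. Of all 22746 probe sets, 8677 have no name. Further genes of the families and lists described below may be among the unnamed probe sets. Of the 45 genes, 10 have a symbol and 35 are known only by their locus number. Probe sets of the kinds that can bind several transcripts (identifiers ending in _s_at or _x_at) made up 4 of the 91, or 4.4%, against 4.67% of all probe sets.

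Most of the gaps were small. The median gap was 1.19, with 52 probe sets between 1 and 1.25, 14 up to 1.5, 16 up to 2, and 9 at or beyond 2. The difference between the group means, gl3 egl3 minus wild type, had a median of -1.65, while the median over all 22746 probe sets was 0.01. On the linear scale the median transcript of the set was 3.13-fold lower. Their wild type means ran from 5.20 to 10.45 with a median of 7.53, close to the 7.75 of all probe sets whose wild type values were both 5 or more. The floor of 5 is part of the rule, so dim transcripts could not enter.

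**Figure D1:**
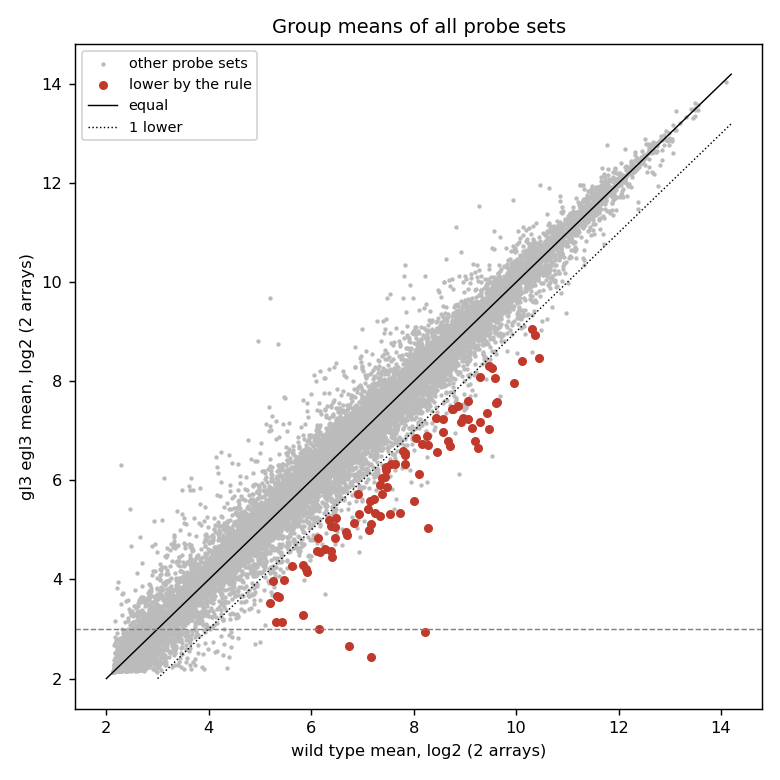
Mean log2 expression value of the 2 gl3 egl3 arrays (vertical) against that of the 2 wild type arrays (horizontal) for all 22746 probe sets in gray and for the 91 lower probe sets in red. The solid line marks equal values, the dotted line a value lower by 1, and the dashed line the low end of the scale at 3. Most red points sit well above the dashed line, and 3 lie below it.

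Within the set, falls to the low end of the scale were few, in part because of the wild type floor of 5. Of the 15 probe sets that only this floor left out, 11 had a mutant mean at the low end. With GCRMA, dim probe sets gather near the bottom of the scale, and values under 3 are called its low end here. In the mutant 3 of the 91 probe sets had a mean under 3, and both mutant arrays of each were under 3. A further 9 had means from 3 to under 4, and 65 kept a mean of 5 or more. A difference that ends at the low end is set in part by that floor, so no fold is given for these 3. In the other 88 the difference ran from -1.14 to -3.24.

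The widest gap belonged to the unnamed probe set 249492_at. The mutant arrays gave 2.995 and 2.88 against 7.71 and 8.74 in wild type. Both mutant arrays were at the low end, whereas wild type was bright on both arrays. Next came 256166_at, a probe set assigned to several genes, with 2.39 and 2.49 in gl3 egl3 against 7.51 and 6.82 in wild type. The only named gene of the 3 was AT2G33850, at 2.76 and 2.53 in gl3 egl3 against 7.22 and 6.24 in wild type. The wild type arrays of these 3 were not close to each other (SD 0.491 to 0.727, n = 2). That the groups lay farther apart than this follows from the rule. The probe set 266772_s_at, assigned to several genes, fell just short of this class, with 3.01 and 3.02 in the mutant and 6.17 and 6.13 in wild type.

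**Figure D2:**
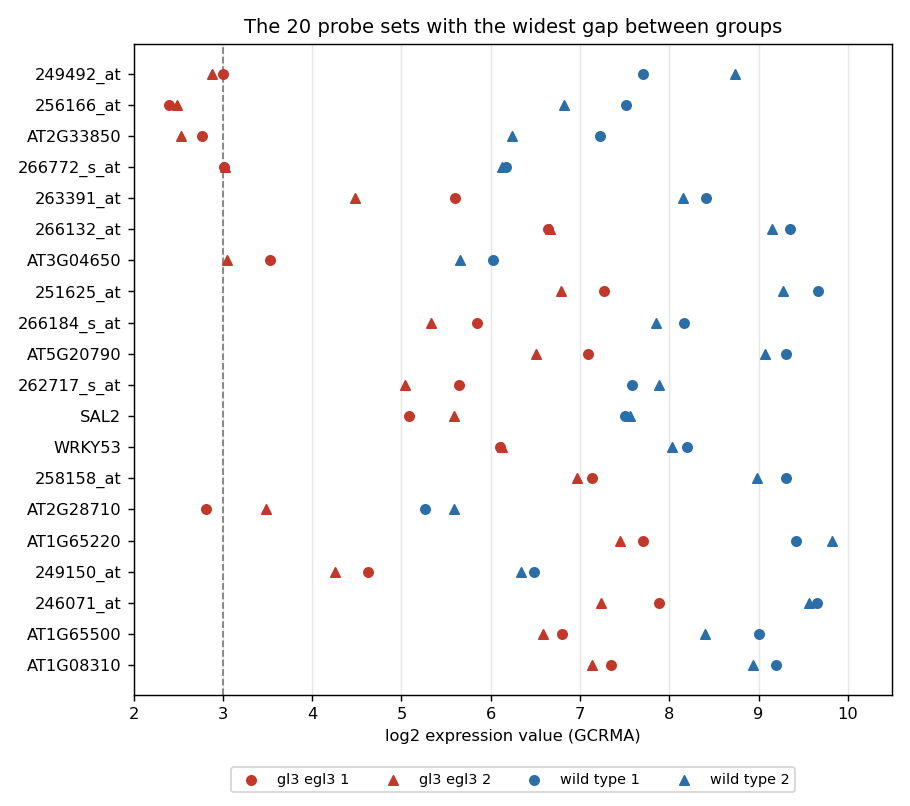
Log2 expression values on the 4 arrays for the 20 probe sets with the widest gap, in order of the gap (red, gl3 egl3; blue, wild type; circles, replicate 1; triangles, replicate 2). The dashed line marks the low end of the scale at 3. The 2 colors never mix, as the rule demands, and only the top 3 rows have both red points under 3.

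Among the 20 widest gaps, 9 probe sets had a gene name. AT3G04650, annotated as an oxidoreductase, lay at 3.53 and 3.05 in gl3 egl3 against 6.03 and 5.65 in wild type. AT5G20790 lay at 7.09 and 6.51 against 9.31 and 9.07, a difference of -2.39. The former was close to the low end in the mutant, and the latter remained clearly expressed. SAL2 encodes a homolog of the phosphatase SAL1, which acts in stress signaling. It had 5.08 and 5.59 in gl3 egl3 against 7.50 and 7.56 in wild type, a difference of -2.19.

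WRKY53, a transcription factor that promotes leaf senescence, had values of 6.10 and 6.13 in the mutant and 8.20 and 8.03 in wild type. Its arrays agreed closely within each group (SD 0.0254 and 0.12, n = 2 each), and its level was 4-fold lower. AT2G28710 lay at 2.81 and 3.48 against 5.26 and 5.59, near the low end in the mutant and dim in wild type. AT1G65220 carries a domain of translation initiation factors of the eIF4-gamma and eIF5 type. At 7.71 and 7.45 in gl3 egl3 against 9.42 and 9.82 in wild type, it had a high signal on all arrays. The last 2 named genes of the 20 were AT1G65500, with 6.80 and 6.59 against 9.01 and 8.40, and AT1G08310, with 7.35 and 7.13 against 9.19 and 8.94. Both were well expressed in either genotype.

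The other 8 of the 20 carry no name and kept a measurable signal in the mutant. The probe set 263391_at had 5.60 and 4.48 in gl3 egl3 against 8.41 and 8.15 in wild type, and its mutant arrays were the farthest apart of the 20. The probe set 266132_at had 6.64 and 6.66 against 9.35 and 9.15, with almost no spread in the mutant. The others repeated this pattern of separate groups at different levels: 251625_at with 7.27 and 6.79 against 9.67 and 9.27, and 266184_s_at with 5.85 and 5.33 against 8.16 and 7.85. The probe sets 262717_s_at and 258158_at had differences of -2.40 and -2.09. Their mutant means were 5.34 and 7.05. The remaining pair, 249150_at and 246071_at, had mutant means of 4.45 and 7.57 and differences of -1.96 and -2.04.

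Among the named genes with a symbol, MYBL2, SNZ and WRKY53 encode regulators of transcription. MYBL2, the single-repeat MYB inhibitor, lay at 8.77 and 9.12 in gl3 egl3 against 10.32 and 10.40 in wild type, a difference of -1.41. It had the second highest wild type mean of the set, 10.36. SNZ (SCHNARCHZAPFEN), an AP2-like repressor of flowering, lay at 3.87 and 3.19 against 5.32 and 5.08. It was dim on all arrays and entered the set close to the wild type floor of 5. SMZ, its close relative and also a floral repressor, was measured at 3.19 and 3.33 against 3.77 and 3.63, and did not meet the rule. AT1G63840, a RING finger protein gene of the type found in ubiquitin ligases, lay at 5.84 and 5.96 against 7.32 and 7.37, with little spread in both groups.

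Of the 6 WRKY genes with a named probe set, WRKY53 was the only one that met the rule, against 0.400% of all probe sets. A single gene cannot be read against that share. WRKY6, another factor linked to senescence, lay at 6.49 and 7.03 in the mutant and 7.64 and 7.66 in wild type, with both mutant arrays lower. The median difference over the 6 genes was -0.14. For WRKY22 the groups overlapped, with 5.46 and 6.58 against 5.31 and 6.39. WRKY42 was at the low end on all arrays, and WRKY20 and WRKY47 differed by -0.05 and 0.25.

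Signaling genes of the set included a receptor kinase, a further kinase and a small GTPase. SD1-29 encodes an S-domain receptor kinase of the cell surface that senses bacterial hydroxylated fatty acids. Its values were 6.22 and 6.34 in gl3 egl3 against 7.52 and 7.40 in wild type, a difference of -1.18. AT5G11410, a protein kinase gene, had 6.06 and 6.04 against 7.37 and 7.39, among the tightest pairs of the set. SGP2, a small GTPase gene, lay at 3.69 and 3.63 against 5.42 and 5.26. Its relative SGP1 lay at 7.75 and 7.18 against 8.86 and 8.54, which is lower on both mutant arrays but with a gap of 0.79.

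Some of the named genes encode enzymes of large families. UGT71B1 and UGT72E1 encode UDP-glycosyltransferases, which attach sugars to small molecules, and UGT72E1 acts on precursors of lignin. UGT71B1 lay at 7.31 and 7.22 in gl3 egl3 against 8.39 and 8.47 in wild type. UGT72E1 had 7.01 and 6.45 against 8.02 and 8.30, the second smallest gap of the set. They were 2 of 47 UGT genes with a named probe set, whose median difference was 0.01 and of which 21 had a mean under 3. The rule was met by 0.400% of all probe sets and by 0.829% of those above the floor. A count of 2 is too small to read against these shares. UGT76C2, which glucosylates cytokinins, pointed the other way, with 7.16 and 6.67 in the mutant and 5.73 and 5.96 in wild type.

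CYP71B23 encodes a cytochrome P450, a family of oxidizing enzymes. It had 6.12 and 6.31 in gl3 egl3 against 7.47 and 7.45 in wild type. Of 19 CYP71B genes with a named probe set, it was the 1 that met the rule, against 0.400% of all probe sets. A single gene cannot be read against that share. CYP71B26 came nearest to it, at 7.40 and 6.74 against 8.09 and 7.99, a gap of 0.59. The median over the 19 was -0.03. Further enzyme genes were AT5G45170, related to the CbbY phosphatases, with 8.28 and 8.25 against 9.50 and 9.56, and AT5G67150, a transferase gene, with 6.94 and 6.84 against 8.42 and 8.10. Both kept a high signal in the mutant.

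The probe sets with the highest wild type signal were mostly unnamed. Signals of different probe sets do not rank their transcripts by abundance. The highest wild type mean, 10.45, belonged to 262369_at, with 8.98 and 7.97 in gl3 egl3 against 10.68 and 10.22 in wild type. Next after MYBL2 was 245329_at, with 9.02 and 9.08 against 10.54 and 10.09. It also had the highest mutant mean, 9.05. The probe set 258856_at followed with 8.62 and 8.20 against 10.25 and 9.99, and 250983_at with 8.07 and 7.88 against 10.51 and 9.40. Wild type means of 9.48 to 9.62 were found for AT1G65220, 246071_at, 252870_at, AT5G45170 and 251143_at, which complete the 10 highest. Of these, 252870_at had 8.22 and 7.91 against 9.74 and 9.44, and 251143_at had 8.23 and 8.38 against 9.48 and 9.49. In the mutant all 10 kept means from 7.57 to 9.05, so that none of these 10 came near the low end.

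The 2 arrays of a group did not always agree. Among the 91 probe sets the median distance between the gl3 egl3 arrays was 0.308 and that between the wild type arrays was 0.233, against 0.192 and 0.208 over all probe sets with both wild type values of 5 or more. Mutant replicate 2 was the lower one in 49 of the 91 and replicate 1 in 42. The mutant arrays lay more than 1 apart in 7 probe sets, and the wild type arrays in 3. AT5G03350 was uneven in both groups, with 7.71 and 6.64 in gl3 egl3 against 9.87 and 8.73 in wild type. AT1G26420 had 3.96 and 5.20 against 6.41 and 6.37, and AT1G35710 had 4.78 and 3.52 against 6.02 and 5.79. The unnamed 266743_at was at the low end on 1 mutant array only, with 3.95 and 2.34 against 5.05 and 5.59.

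The remaining named genes lay between these extremes. AT1G67920, AT1G64405 and AT1G60590 had differences of -1.75, -2.14 and -1.72. AT1G51920, AT5G64550 and AT1G13750 differed by -2.05, -1.74 and -1.79. AT2G26630 is annotated as a pseudogene, and it differed by -1.60, with 5.45 and 6.30 against 7.46 and 7.48. Differences of -1.57 to -1.47 were found for AT1G23140, AT5G43150, AT5G06190 and ZCF37, a gene of unknown function. Another 11 ranged from -1.41 to -1.19: AT4G11300, AT5G38710, AT1G19200, AT3G22850, AT1G77280, AT1G65490, AT3G04640, AT3G45210, AT3G26440, AT2G38740 and AT1G66880.

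Membership depended on small amounts at the edge of the rule. Just inside the gap were AT3G45210, with 5.47 and 5.0 in gl3 egl3 against 6.48 and 6.49 in wild type, UGT72E1 and 264000_at, with 6.86 and 6.85 against 8.25 and 7.86. Just outside were 258925_at, with 7.82 and 7.15 against 9.13 and 8.82, AT2G24160, with 5.38 and 4.97 against 6.60 and 6.37, and AT3G09020, with 5.65 and 5.73 against 7.02 and 6.71. The wild type floor left out 15 probe sets with a gap of 1 or more, of which 11 had a mutant mean under 3. The 3 nearest below the floor were 261913_at, 258570_at and 261077_at, whose lower wild type values were 4.825, 4.706 and 4.576. Counting only transcripts above the floor therefore leaves most of the falls to the low end uncounted.

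Of the 18 direct targets that the study assigned to GL3 or GL1, 14 were measured, and MYBL2 was the 1 that met the rule. Another 5 of the 14 had means under 3 and could not pass the wild type floor. A single gene cannot be read against the 0.829% of probe sets that met the rule among those above the floor. Both mutant arrays were lower in 3 of the 14, MYBL2 among them by the rule, and higher in 6. Of all probe sets, 12.7% and 38.1% were lower or higher on both arrays, a count that includes the dim ones. Among the 11298 probe sets with a mean of 5 or more these shares were 18.3% and 28.3%. CPC, the mobile inhibitor of trichome fate, came next, with 2.92 and 2.72 in gl3 egl3 against 3.92 and 5.23 in wild type, a gap of 0.99 that missed the limit, with 1 wild type value under the floor of 5. The median difference of the 14 was 0.06. SIM, RBR1, a repressor of cell cycle genes, and FDH (KCS10), an enzyme of surface lipids, had differences of 0.15, -0.01 and 0.23.

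Listed pathways were compared with the set by counts. Glucosinolate genes make the mustard oil glucosides of defense. Of 29 listed, 5 were measured, that is, had a named probe set, and the others could not be looked up. All 5 were lower on both mutant arrays, and none of the 5 met the rule. The share lower on both arrays was 18.3% of all probe sets with a mean of 5 or more. AOP3, a side chain enzyme, missed it narrowly, with 9.63 and 8.88 in gl3 egl3 against 10.63 and 10.58 in wild type. UGT74B1, of the core pathway, had 8.10 and 8.28 against 9.27 and 9.15, and BCAT4, of chain elongation, 9.46 and 8.62 against 10.68 and 10.29. The gaps of these 3 genes were 0.95, 0.88 and 0.83, and the median difference of the 5 was -1.03. GSTU20, a glutathione transferase gene linked to the pathway, had 10.05 and 9.75 against 11.16 and 10.41. AT2G31790 barely separated, with 6.72 and 7.08 against 7.16 and 7.14. The 5 measured genes do not stand for the pathway.

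Of 19 listed flavonoid and anthocyanin genes 7 were measured, with MYBL2 as the 1 in the set. A single gene cannot be read against the 0.400% of all probe sets that met the rule. Both mutant arrays were lower in 6 of the 7, against 12.7% of all probe sets, but 4 of the 7 had means under 3. At that level the separation was within 0.04 for DFR and AT4G14090, both genes of anthocyanin synthesis. UGT78D1, a glycosyltransferase of flavonols, had 7.56 and 6.26 against 8.57 and 8.05, a gap of 0.49. Salicylic acid defense had 2 measured genes among 16 listed, too few to read against the 0.400% of all probe sets. Of these 2, WRKY53 met the rule. SAG101, a lipase-like gene, was the other, with 7.20 and 6.91 against 7.05 and 7.11. Of 16 listed genes of rapid stress responses 2 were measured, as were 1 of 13 clock genes and 1 of 12 jasmonate genes. None of these met the rule, and they do not stand for their pathways. The clock gene GI was lower on both mutant arrays, with 6.32 and 5.73 against 6.99 and 7.23.

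**Figure D3:**
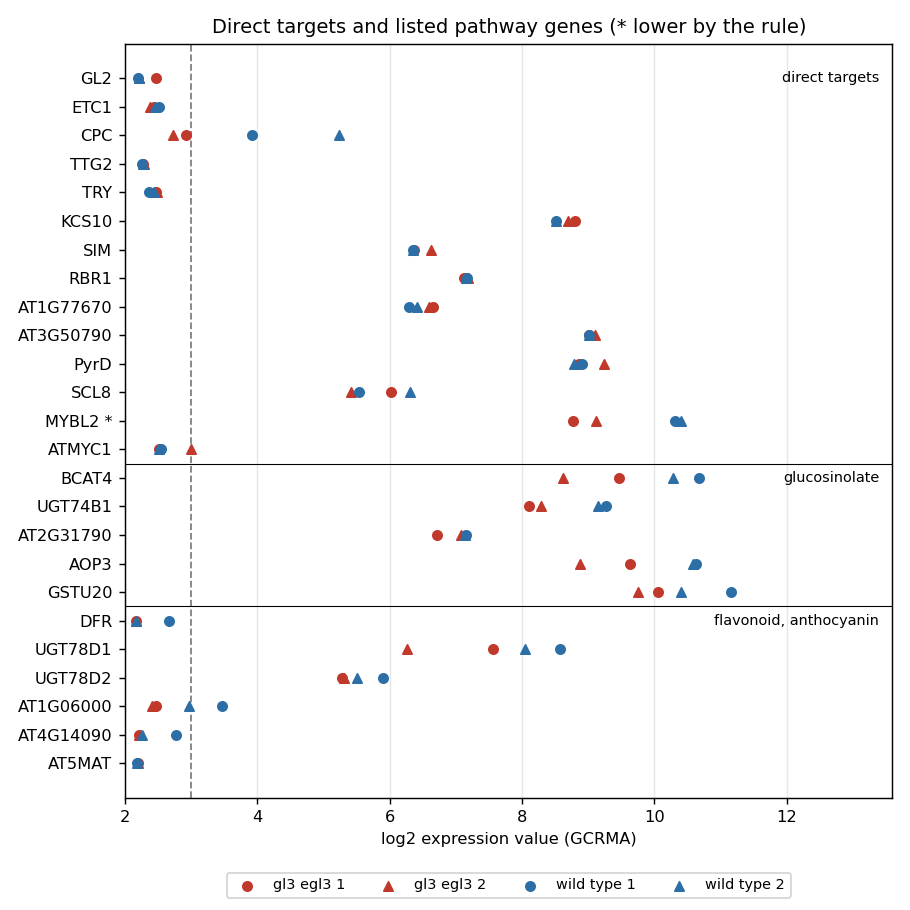
Log2 expression values on the 4 arrays for the measured direct targets of GL3 or GL1, glucosinolate genes, and flavonoid and anthocyanin genes (red, gl3 egl3; blue, wild type; circles, replicate 1; triangles, replicate 2; dashed line, low end of the scale at 3). A star marks MYBL2, the 1 gene shown that met the rule. Blue points lie to the right for all 5 glucosinolate genes, and 5 of the 14 direct targets have means under 3.

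The combined list of trichome genes of the study held 9 of the 45 named genes, or 20.0%, against 1.96% of the 13338 named genes on the array. These were AT1G65220, AT3G04650, WRKY53, AT1G67920, AT1G63840, AT5G11410, AT5G45170, AT5G67150 and AT5G43150. That list was drawn in part from these same arrays, so the share is not independent evidence.

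The position of the genes was not used by the rule. For this the protein-coding genes of each chromosome were numbered in their order along the TAIR10.1 annotation, which placed 44 of the 45 named genes, all but the pseudogene. Chromosome 1 carried 19 of the 44, or 43.2%, where it holds 26.3% of the 12276 named genes with a place. Chromosomes 2 to 5 carried 4, 9, 2 and 10. Of the 47 placed genes that were higher by the mirrored rule, 10, or 21.3%, were on chromosome 1.

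The genes of chromosome 1 crowded around EGL3, 1 of the 2 mutated genes. Within 500 protein-coding genes on either side of it lay 10 of the 44, or 22.7%, while 3.62% of the named genes lie there. For the higher genes this number was 2 of 47, or 4.26%. The window was chosen after the loci had been seen. Within 250 genes there were 6 of the 44 and within 1000 genes 11. Around GL3 on chromosome 5, 3 of the 44, or 6.82%, lay within 500 genes, where 3.57% of the named genes lie. The wider sets that the rule gives with 1 array left out held smaller shares within 500 genes of EGL3: 10.3% and 13.8% on leaving out gl3 egl3 replicates 1 and 2, and 13.9% and 9.35% on leaving out wild type replicates 1 and 2.

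In order along the chromosome, the 10 genes were ZCF37 (431 genes before EGL3), AT1G60590 (337 before), SD1-29 (244 before), AT1G63840 (17 after), AT1G64405 (80 after), AT1G65220 (167 after), AT1G65490 (202 after), AT1G65500 (203 after), AT1G66880 (346 after) and AT1G67920 (458 after). AT1G64405 had 4.52 and 5.45 in gl3 egl3 against 7.36 and 6.89 in wild type. AT1G60590 had 4.65 and 5.26 against 6.70 and 6.65. The mean level of this group in wild type was not uniform, from the low signal of ZCF37, with 3.63 and 4.35 against 5.49 and 5.43, to the high signal of AT1G65220.

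Most other genes of this stretch were not lower. Of the 445 named genes within 500 genes of EGL3, 2.25% met the rule, against 0.358% of all placed genes. Both mutant arrays were lower in 13.9% of the 445 and in 11.9% of all placed genes, and the median difference was 0.01 in either. When windows of the same width were moved along all 5 chromosomes in steps of 100 genes, the highest count was 10, in windows that overlap the one around EGL3, and no window on another chromosome held more than 5. MYBL2 lies on the same arm, 793 genes after EGL3 and outside the window. The labels name an accession for wild type only, and a part of accession differences in these values was not tested.

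**Figure D4:**
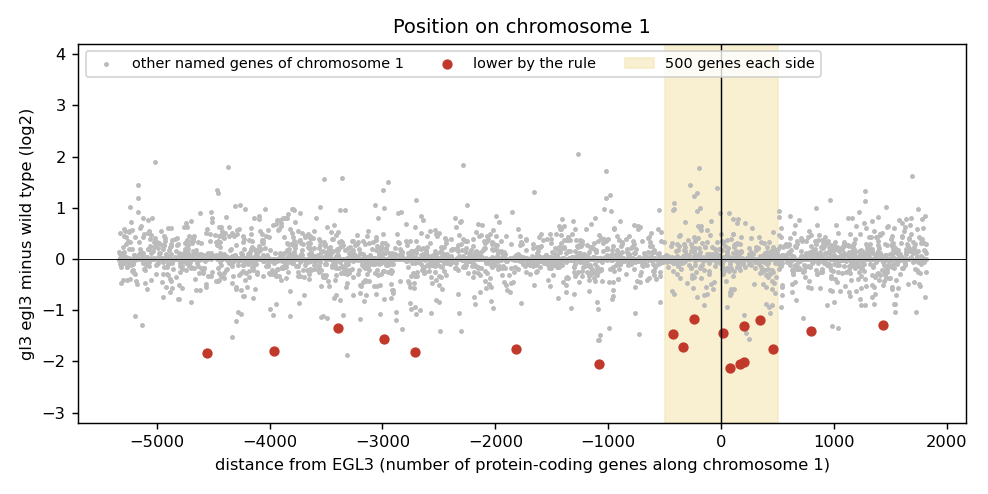
Difference between the group means, gl3 egl3 minus wild type on the log2 scale, for the named genes of chromosome 1 by their distance from EGL3, counted in protein-coding genes. Red points are the 19 genes lower by the rule and gray points all others, and the shaded band covers 500 genes on either side. The band holds 10 of the 19 red points, among gray points that scatter around 0.

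Some members were neighbors. AT1G65490 and AT1G65500 stand next to each other on chromosome 1 and had differences of -1.30 and -2.01. AT1G65490 lay at 6.16 and 6.49 in gl3 egl3 against 7.72 and 7.55 in wild type. AT3G04640 and AT3G04650 stand next to each other on chromosome 3. AT3G04640 stayed well expressed, with 7.18 and 7.70 against 8.76 and 8.71, whereas AT3G04650 was near the low end in the mutant. SGP2 and UGT71B1 are 5 genes apart on chromosome 3. No other pair of placed genes in the set was within 10 genes of each other.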

How the data were processed

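The authors made the deposited log2 expression values from Affymetrix ATH1 array images with GCRMA (background correction from probe sequence, quantile normalization, median polish) in R. The sources used here state neither its version nor which arrays entered the normalization. GCRMA compresses low values, so differences near the low end are understated or set by the floor. No detection calls were used.

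The 64 control probe sets among 22810 were dropped. Members were selected in Python 3.11.15 by the rule given above. The test over all probe sets used limma 3.58.1 in R 4.3.3 (lmFit, eBayes, two-sided, Benjamini-Hochberg over 22746 probe sets, threshold 0.05), with 2 arrays per group and no covariates. The number of arrays limits the precision. p-values measure only the spread between these samples. Scripts were tested on simulated data. Names came from the platform annotation, matched by gene number to RefSeq (TAIR10.1), and from the probe identifiers in the trichome gene list of the study. TAIR10.1 was used for names and gene order only.

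The members and gene lists were chosen with earlier results of these data known. Values on all arrays are given for the 20 widest gaps, the 10 highest wild type means, members in a list, and those at the edges of the rule. Other genes given with array values were chosen after their values were seen. Where a listed gene had several probe sets, the brightest on average was used.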

Additional observations from a re-analysis of the deposited data

How the results depend on the processing

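The count of 0 probe sets at a limma adjusted p under 0.05 held with the methods' t-test, the filter at a mean of 5, an intensity trend with robust variances, quantile normalization, the replicate number as a block, and without any single array. The rule gave 91 probe sets. It gave 50 with 16 added on the linear scale, which shrinks the differences of dim genes, 25 with a gap of 1.5, and 291 with the difference of group means, which asks less of each array. With same-numbered arrays set against each other as a replicate block it gave 146, and without 1 array it gave 174 to 292 (174 and 292 on leaving out wild type replicates 1 and 2, 281 and 175 on leaving out gl3 egl3 replicates 1 and 2). Fewer arrays make the rule easier to meet. The count was 94 with quantile normalization, 98 with arrays centered on their medians, 98 and 77 with wild type floors of 4 and 6, and 87 without probe sets that can bind several transcripts. The numbers of the samples are not known to pair them, since the labels do not say what they share, and the deviations of same-numbered arrays correlated at 0.134.

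The 3 probe sets under 3 in the mutant became 1 at a limit of 2.5 and 12 at a limit of 4. They were 4 without gl3 egl3 replicate 1, 4 without replicate 2, and 4 with arrays centered on their medians. All 728 alternative values of the 91 differences stayed below 0, which the gap of 1 or more makes nearly certain. The share of placed members within 500 genes of EGL3, an alternative added after the data were seen, was 9.35% to 31.8% under the other definitions of the set. It was lowest without wild type replicate 2 (13 of 139 genes) and highest with 16 added on the linear scale (7 of 22 genes).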
